A study of Mus musculus with 6 samples.

Results

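The genes described here serve the nucleolus, where ribosomes are built. They were all genes of the array annotation whose symbol begins with Nop, Nol, Utp or Rrp followed by a digit, or with Polr1, together with Dkc1, Ncl, Npm1, Fbl, Bop1, Pes1, Wdr12, Rrs1 and Ebna1bp2. This rule found 51 genes among the 18193 that a probe set named without ambiguity, and each gene was represented by the probe set that was brightest on average.

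Expression had been measured on 6 Affymetrix mouse arrays, 2 for each of 3 groups of bone marrow cells from C57BL/6J mice. The MN1 group held GFP+ marrow cells carrying pSF91-MN1-IRES-GFP, a retroviral vector for MN1, a transcriptional cofactor that causes myeloid leukaemia in mice when overexpressed. The MN1VP16 group held GFP+ cells carrying pSF91-MN1VP16-IRES-GFP, a construct that joins MN1 to the name of a viral transcriptional activator and that the labels describe no further. The Gr1Mac group held marrow cells sorted as Gr1+/CD11b+, the surface markers of granulocytes and monocytes. Per the labels, donor marrow came from mice given 5-fluorouracil at 150 mg/kg for 4 days, was stimulated for 48 hours with interleukins and stem cell factor, and was transplanted into lethally irradiated syngeneic mice. Sorting followed 4 weeks after transplantation, and the labels do not say whether the Gr1Mac cells came from transplanted mice, carried a vector or were free of one. The GFP+ cells were bulk populations from transduced marrow, sorted on GFP alone, and the ages of the mice are not given. Nothing in the labels says that the arrays within a group are separate animals. The p-values therefore reflect array-to-array spread alone, possibly a technical one in MN1 and MN1VP16. The 2 Gr1Mac arrays differed in sex-linked genes, as given below, so they did not come from 1 RNA sample. The 2 MN1VP16 arrays read 10.40 and 7.43 for the Y-linked gene Eif2s3y, but 7.24 and 7.55 for Kdm5d, which is Y-linked too. Whether these 2 arrays came from 1 RNA sample was not tested.

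A ribosome begins as a long precursor rRNA transcribed by RNA polymerase I in the nucleolus. Small nucleolar RNA-protein particles (snoRNPs) guide chemical marks onto this precursor, and large sets of assembly factors fold and cut it into the rRNAs of the small and the large subunit. Growing and dividing blood progenitors make many ribosomes, whereas maturing neutrophils shrink their nucleoli and make few. The transcription factor Myc is a well-known activator of these genes.

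All values are log2 expression units as deposited, and levels of different probe sets are not compared with each other. A difference is the mean of one group minus that of another (n = 2 arrays each) with limma's standard error (SE), and calls needed an adjusted p under 0.05 over all 18193 genes. An exact permutation test of 2 arrays against 2 cannot reach 0.05. MN1 and MN1VP16 were both set against the same 2 Gr1Mac arrays, so those comparisons are not independent of each other.

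The labelled cell types were checked on their markers. Itgam, which encodes CD11b, read 10.95 and 10.92 in Gr1Mac, 9.44 and 8.88 in MN1VP16, and 7.67 and 6.95 in MN1. The genes of the Gr1 antigen had no unambiguously named probe set here. Of 13 granulocyte and monocyte markers measured, 9 fell in MN1 against Gr1Mac and 0 rose. The other lists moved too: in MN1 against Gr1Mac, 8 of 11 stem and progenitor markers rose, 9 of 11 erythroid, 4 of 7 mast cell and basophil and 3 of 7 megakaryocyte markers. The mean level of the stem and progenitor markers ranged from 9.44 to 9.60 in MN1, from 8.04 to 8.86 in MN1VP16 and from 6.42 to 6.44 in Gr1Mac, and that of the erythroid markers from 10.59 to 11.24 in MN1 and from 6.96 to 7.10 in Gr1Mac, with both MN1VP16 arrays between. Of the markers of B cells 1 of 9 rose and 2 fell, of T and NK cells 1 of 8 fell, and of stroma and endothelium 1 of 9 fell. In MN1VP16 against Gr1Mac, 4 of 11 stem and progenitor, 5 of 11 erythroid, 2 of 7 mast cell and basophil, 1 of 7 megakaryocyte and 2 of 9 B cell markers rose, while 1 of 13 granulocyte and monocyte and 1 of 8 T and NK cell markers fell. In MN1VP16 against MN1, 7 of 11 erythroid and 2 of 11 stem and progenitor markers were lower, and 3 of 13 granulocyte and monocyte and 1 of 9 B cell markers were higher. The mean of the B cell markers was 6.96 and 7.36 in MN1VP16, 5.99 and 5.90 in MN1, and 6.37 and 5.93 in Gr1Mac. RMA values have no zero, so none of these markers can be called absent. The part of cell composition in the results below was not tested, and in bulk RNA fewer cells of a type and less RNA per cell cannot be told apart.

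In MN1 cells 41 of the 51 nucleolar genes were higher than in Gr1Mac cells and 0 were lower, while 17.3% of all genes were called higher and 12% lower. The median difference of the 51 genes was 1.59, against -0.06 for all genes tested. In MN1VP16 cells 17 of the 51 were higher than in Gr1Mac cells and 0 were lower, where 3.66% of all genes were called higher and 2.11% lower, and the median difference was 0.92 against -0.0005. Between the transduced groups, 4 of the 51 were lower in MN1VP16 than in MN1 and 0 were higher, where 2.7% of all genes were called lower and 1.15% higher, and the median difference was -0.73 against 0.03. Both MN1 arrays lay above both Gr1Mac arrays for 46 of the 51 genes (30.9% of all genes), both MN1VP16 arrays above both Gr1Mac arrays for 42 (24.8%), and both MN1 arrays above both MN1VP16 arrays for 46 (29.2%). For 39 of the 51 genes both MN1 arrays lay above both MN1VP16 arrays and these above both Gr1Mac arrays, an order that 14.1% of all genes had.

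**Figure D1:**
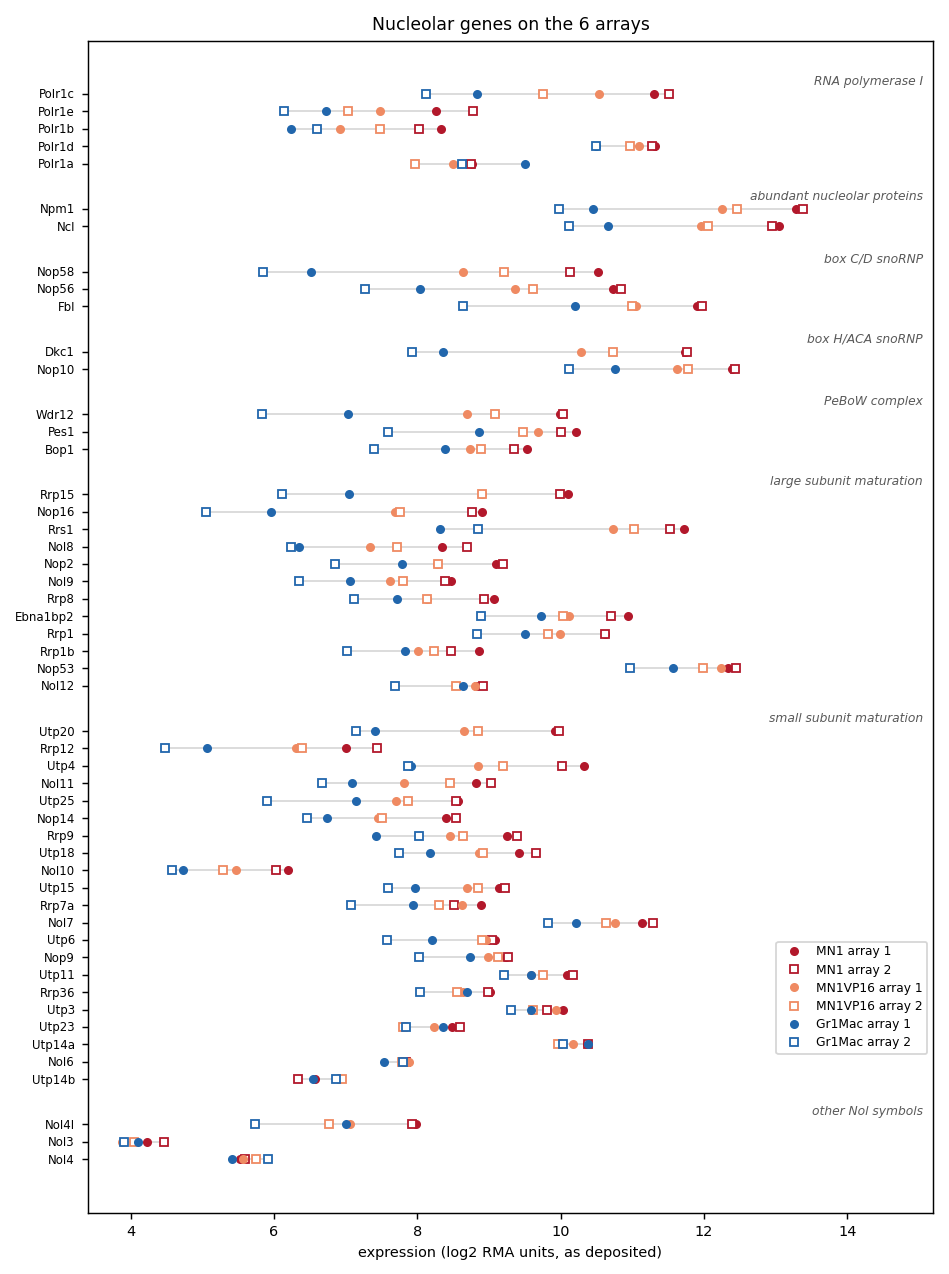
Expression of each of the 51 nucleolar genes (rows, grouped by role) on the 6 arrays, in log2 RMA units as deposited; colour is the group and filled circles or open squares are arrays 1 and 2. In most rows the red MN1 symbols lie to the right, the orange MN1VP16 symbols between and the blue Gr1Mac symbols to the left; Polr1a, Nol6, Utp14a and Utp14b are among the 12 rows that depart from this.

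These counts changed when 1 array was left out. Each such fit has fewer degrees of freedom and another estimate of the spread, so a changed count need not mean a changed difference. Without an MN1 array the differences of MN1VP16 from Gr1Mac were unchanged (median 0.92). Without a Gr1Mac array those between MN1VP16 and MN1 were unchanged (median -0.73). The counts over all genes changed too and are given in the section on processing below. The count for MN1 over Gr1Mac was 25 without MN1 array 2, 28 without MN1 array 1, and 37 to 43 without any 1 of the other arrays. The count of 17 for MN1VP16 over Gr1Mac became 0 without Gr1Mac array 2, 28 without Gr1Mac array 1, and 4 to 6 without any 1 of the 4 transduced arrays. The 4 calls between MN1VP16 and MN1 became 0 without any 1 of the transduced arrays and 7 without either Gr1Mac array.

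The arrays differed in ways beside the groups. The labels give no sex, yet Xist, the RNA of the inactive X chromosome, was high in MN1 (12.36 and 12.59) and on Gr1Mac array 1 (10.44) and low in MN1VP16 (5.53 and 5.84) and on Gr1Mac array 2 (5.83), with the Y-linked gene Kdm5d opposite. MN1VP16 and MN1 therefore differed in this pattern on every array, so that the pattern and the construct cannot be told apart from these 4 arrays alone. With it as a term in the model the calls were 37 of 51 for MN1 over Gr1Mac, 28 for MN1VP16 over Gr1Mac and 0 for MN1VP16 below MN1. Since each pattern occurs on 1 Gr1Mac array, this fit sets MN1 against Gr1Mac array 1 alone and MN1VP16 against Gr1Mac array 2 alone, and these counts repeat those without the other Gr1Mac array. For MN1VP16 against MN1 it rests on the gap between the 2 Gr1Mac arrays, and 0 of 18193 genes were called in that fit, so it shows nothing about the stability of the 4 calls. The 33 bright control features, among them those for mouse rRNA, put MN1 arrays 1 and 2 with MN1VP16 array 1 on one side. They put the other 3 arrays on the other. MN1 and Gr1Mac thus differed in this split on every array. From these 4 arrays alone the split and the group cannot be told apart. A fit with the split as a term takes its size from the gap between the 2 MN1VP16 arrays. It sets MN1VP16 array 1 alone against MN1 and MN1VP16 array 2 alone against Gr1Mac. With that split as a term, 17, 5 and 0 of the 51 genes were called in the same 3 comparisons.

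The RNA polymerase I subunits came first in the pathway, and 4 of the 5 rose in MN1 against Gr1Mac (median difference 1.75). Polr1b, which with Polr1a forms the catalytic centre, read 8.32 and 8.02 for MN1, 6.92 and 7.48 for MN1VP16 and 6.24 and 6.60 for Gr1Mac. The 3 groups did not overlap, and MN1 exceeded Gr1Mac by 1.75 ± 0.25 (SE; adjusted p = 0.00495), a 3.37-fold difference (95% interval 2.19 to 5.18). MN1VP16 differed from Gr1Mac by 0.78 ± 0.25 (adjusted p = 0.136) and from MN1 by -0.98 ± 0.25 (adjusted p = 0.0955). Polr1e, a subunit that only this polymerase uses, read 8.26 and 8.77, then 7.48 and 7.03, then 6.72 and 6.15 in the same order of groups. It rose in MN1 by 2.08 ± 0.29 over Gr1Mac (adjusted p = 0.00454), with MN1VP16 between and apart from both groups on every array. For MN1VP16 its difference was 0.82 ± 0.29 from Gr1Mac (adjusted p = 0.164) and -1.26 ± 0.29 from MN1 (adjusted p = 0.0743).

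Polr1c and Polr1d form a pair of subunits that RNA polymerase III uses as well. Polr1c had the largest differences from Gr1Mac among the 5 subunits: 11.30 and 11.51 with MN1, 10.53 and 9.76 with MN1VP16 and 8.84 and 8.13 in Gr1Mac cells. It rose in MN1 by 2.92 ± 0.34 (adjusted p = 0.00277) and in MN1VP16 by 1.66 ± 0.34 (adjusted p = 0.0483) over Gr1Mac. It was the single polymerase subunit of the rule called in MN1VP16, and that call held under 5 of the 16 alternatives described below. Between MN1VP16 and MN1 its difference was -1.26 ± 0.34 (adjusted p = 0.102). The other Polr1c probe set rose by 2.36 in MN1 (adjusted p = 0.0044). Its difference of 1.33 in MN1VP16 against Gr1Mac was not called (adjusted p = 0.0732). Polr1d rose less, by 0.80 ± 0.15 in MN1 (adjusted p = 0.0103), with 0.54 ± 0.15 in MN1VP16 (adjusted p = 0.0908). Of the other Polr1d probe sets 1 was called in MN1, with 0.88 (adjusted p = 0.00921). The remaining 2 differed by 0.58 each and were not called (adjusted p = 0.177 and 0.168).

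Polr1a, the largest subunit, did not follow the other subunits. It read 8.77 and 8.75 on the MN1 arrays, 8.50 and 7.96 for MN1VP16 and 9.50 and 8.62 for Gr1Mac. The MN1 arrays lay between the 2 Gr1Mac arrays, and both MN1VP16 arrays lay below them. No difference was called: -0.31 ± 0.33 for MN1 against Gr1Mac (adjusted p = 0.556), -0.83 ± 0.33 for MN1VP16 against Gr1Mac (adjusted p = 0.198) and -0.53 ± 0.33 between the transduced groups (adjusted p = 0.420). A second probe set of Polr1a read 6.96 and 6.89 for MN1, 6.99 and 7.07 for MN1VP16 and 8.21 and 7.65 for Gr1Mac, and its difference of -1.01 was called lower (adjusted p = 0.018). Another read 7.97 and 7.36, 6.93 and 7.16, and 7.64 and 7.92 in the same order, where MN1 overlapped Gr1Mac with a difference of -0.12 and both MN1VP16 arrays lay below the other 4. None of the 3 Polr1a probe sets above the dim range was thus higher in MN1, while the direction for the first turned to 0.14 (not called) without Gr1Mac array 1.

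Of 14 other genes of the polymerase I machinery fixed as a list, 4 rose and 1 fell in MN1 against Gr1Mac (median 0.44), and 2 rose in MN1VP16. The 3 that moved most were Taf1d, a part of the promoter selectivity factor, with 2.51 ± 0.29 (adjusted p = 0.00266), Rrn3, which recruits the polymerase to the rRNA gene promoter, with 2.18 ± 0.20 (adjusted p = 0.00172), and Sirt7, a nucleolar deacylase that fell by 1.28 ± 0.20 (adjusted p = 0.00642). Taf1d and Rrn3 were also the genes that rose in MN1VP16, by 1.42 ± 0.29 (adjusted p = 0.0475) and 1.35 ± 0.20 (adjusted p = 0.0263). The other polymerase I subunits, listed under older symbols and named here after their values were seen, split: Twistnb rose by 0.93 ± 0.15 and Cd3eap at least 1.99-fold, whereas Znrd1 differed by 0.15 ± 0.21 (adjusted p = 0.658). Ubtf, which opens the rRNA genes for transcription, differed by 0.61 ± 0.19 in MN1 and was not called (adjusted p = 0.0578).

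Both abundant nucleolar proteins rose in each transduced group. Npm1 encodes nucleophosmin, a nucleolar chaperone whose gene is often mutated in human myeloid leukaemia, and read 13.29 and 13.38 with MN1, 12.25 and 12.46 with MN1VP16 and 10.45 and 9.98 in Gr1Mac cells. The groups were far apart relative to the gaps within them. MN1 exceeded Gr1Mac by 3.12 ± 0.21 (adjusted p = 0.00107), which is 8.67-fold (95% interval 6.11 to 12.3), and MN1VP16 by 2.14 ± 0.21 (adjusted p = 0.0127). Ncl encodes nucleolin, which binds nascent precursor rRNA, and read 13.04 and 12.95, 11.96 and 12.06, and 10.66 and 10.12. It rose by 2.61 ± 0.21 in MN1 (adjusted p = 0.00137) and by 1.63 ± 0.21 in MN1VP16 (adjusted p = 0.0207). Between MN1VP16 and MN1 the differences were alike in size, -0.98 ± 0.21 for Npm1 (adjusted p = 0.0601) and -0.99 ± 0.21 for Ncl (adjusted p = 0.0636), and neither was called. On further Ncl probe sets, of which 2 were called lower, the differences were -1.07 (adjusted p = 0.0452) and -1.04 (adjusted p = 0.0382). Both Npm1 probe sets carry the suffix of sets that match several transcripts of a gene.

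The protein core of the box C/D snoRNPs, which methylate rRNA, rose in all 3 of its measured members in MN1 (median 3.13). Nop58, a scaffold protein of these particles, had the largest difference of the 51 genes: 10.51 and 10.13 on the MN1 arrays, 8.64 and 9.22 for MN1VP16 and 6.52 and 5.85 for Gr1Mac. The groups did not overlap, and the difference from Gr1Mac was 4.14 ± 0.31 in MN1 (17.6-fold, 95% interval 10.4 to 29.8; adjusted p = 0.00125) and 2.74 ± 0.31 in MN1VP16 (6.68-fold; adjusted p = 0.0156). Nop56, its partner scaffold, read 10.73 and 10.84, 9.37 and 9.61, and 8.04 and 7.28. It rose by 3.13 ± 0.27 in MN1 (adjusted p = 0.00149) and by 1.83 ± 0.27 in MN1VP16 (adjusted p = 0.0262). Fbl, the methyltransferase fibrillarin, read 11.91 and 11.97, 11.05 and 11.00, and 10.20 and 8.64. Its Gr1Mac arrays lay 1.56 apart, the widest gap between arrays of a group among the 51 genes. It rose by 2.52 ± 0.47 in MN1 (adjusted p = 0.0111), and its difference of 1.61 ± 0.47 in MN1VP16 was not called (adjusted p = 0.108). MN1VP16 lay below MN1 by -1.40 ± 0.31 for Nop58 (adjusted p = 0.0677), -1.29 ± 0.27 for Nop56 (adjusted p = 0.0596) and -0.91 ± 0.47 for Fbl (adjusted p = 0.330), none of them called.

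The box H/ACA snoRNPs turn uridine into pseudouridine in rRNA, and both measured members also belong to telomerase. Dkc1, the pseudouridine synthase dyskerin, read 11.74 and 11.77 for MN1, 10.29 and 10.73 for MN1VP16 and 8.36 and 7.92 for Gr1Mac. It was called in all 3 comparisons: higher by 3.61 ± 0.23 in MN1 (12.2-fold; adjusted p = 0.00107), higher by 2.37 ± 0.23 in MN1VP16 (adjusted p = 0.0127), and lower by -1.25 ± 0.23 in MN1VP16 than in MN1 (adjusted p = 0.0465). Nop10, a small core protein of the same particle, read 12.39 and 12.44, 11.62 and 11.78, and 10.76 and 10.11. It rose by 1.98 ± 0.24 in MN1 (adjusted p = 0.00308) and by 1.27 ± 0.24 in MN1VP16 (adjusted p = 0.0410), and differed by -0.71 ± 0.24 between them (adjusted p = 0.154).

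Pes1, Bop1 and Wdr12 form the PeBoW complex, which the cutting of the large-subunit precursor needs, and all 3 rose in MN1. Their fitted sizes were unequal. Wdr12 read 10.00 and 10.03 with MN1, 8.70 and 9.09 with MN1VP16 and 7.03 and 5.84 in Gr1Mac cells. It rose by 3.58 ± 0.39 in MN1 (12.0-fold, 95% interval 6.20 to 23.1; adjusted p = 0.00233) and by 2.46 ± 0.39 in MN1VP16 (adjusted p = 0.0280). Pes1 read 10.21 and 10.01, 9.68 and 9.47, and 8.86 and 7.59. It rose by 1.88 ± 0.40 in MN1 (adjusted p = 0.0171), and the 1.35 ± 0.40 in MN1VP16 was not called (adjusted p = 0.111). Bop1 read 9.54 and 9.35, 8.74 and 8.89, and 8.39 and 7.39. It rose by 1.56 ± 0.33 in MN1 (adjusted p = 0.0163), with 0.92 ± 0.33 in MN1VP16 (adjusted p = 0.161). In all 3 genes Gr1Mac array 1 read far above array 2 relative to the gaps in the other groups. Between the transduced groups the differences were -1.12 ± 0.39 for Wdr12, -0.53 ± 0.40 for Pes1 and -0.63 ± 0.33 for Bop1, with adjusted p of 0.163, 0.514 and 0.332.

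**Figure D2:**
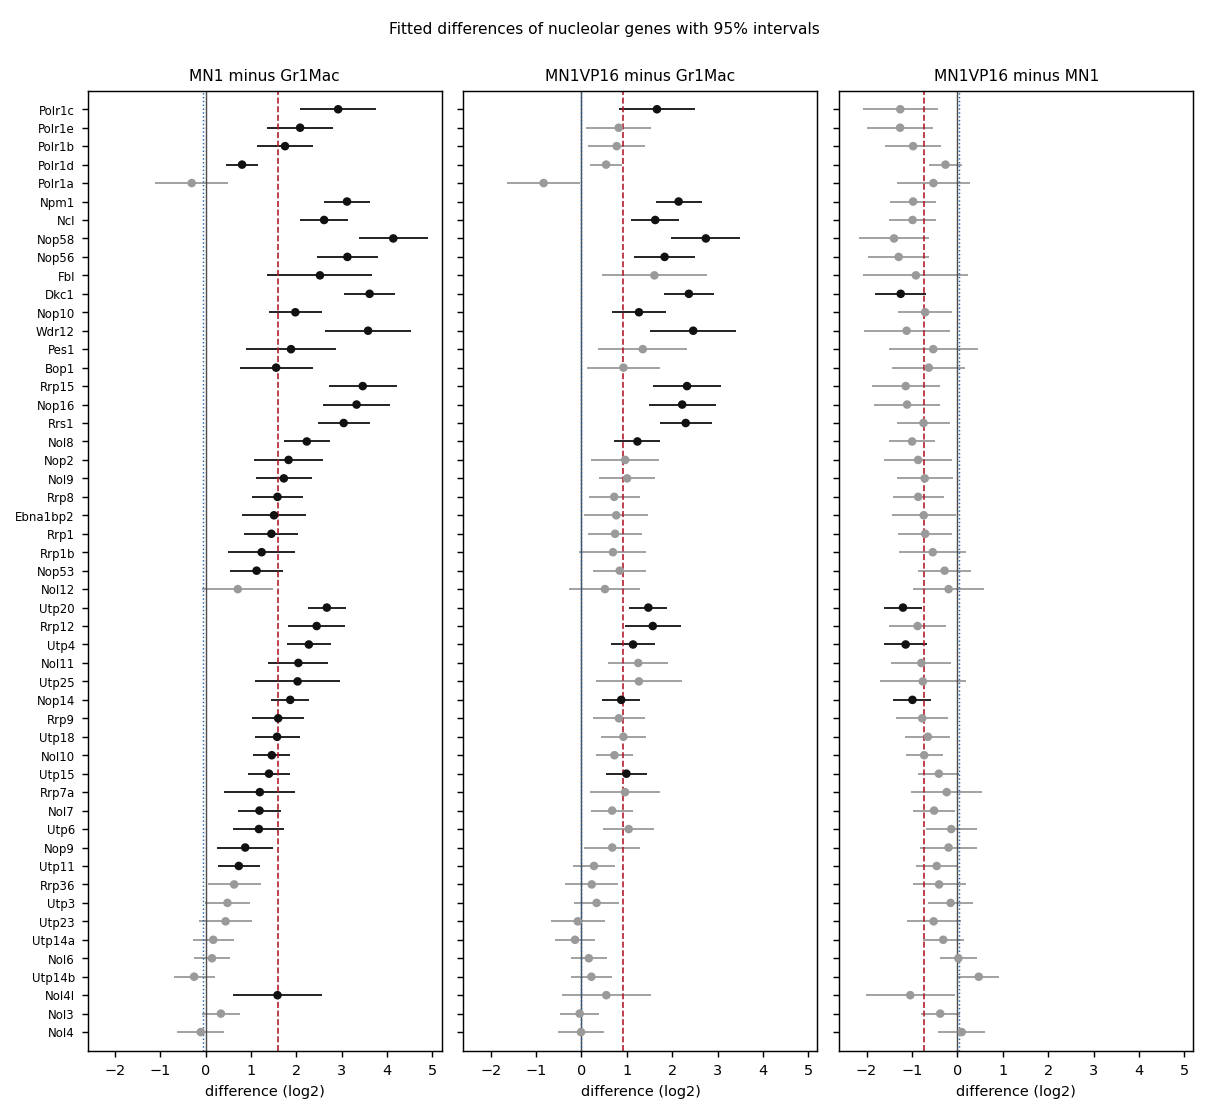
Fitted difference of each nucleolar gene (log2, points) with its 95% interval (lines) in the 3 comparisons; black marks called genes and grey the others, the dashed red line is the median of the 51 genes and the dotted blue line that of all genes tested. The red line sits at 1.59, 0.92 and -0.73 from left to right, with 41, 17 and 4 black points.

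Of 12 further genes of large-subunit maturation, 11 rose in MN1 and 4 in MN1VP16 (medians 1.66 and 0.90). Rrp15, Nop16, Rrs1 and Nol8 were the 4. Rrs1, which brings the smallest large-subunit rRNA and its proteins into the precursor, read 11.72 and 11.53 on the MN1 arrays, 10.73 and 11.03 for MN1VP16 and 8.31 and 8.85 for Gr1Mac. It rose by 3.04 ± 0.24 in MN1 (adjusted p = 0.00129) and by 2.30 ± 0.24 in MN1VP16 (adjusted p = 0.0140), with -0.75 ± 0.24 between them (adjusted p = 0.135). Its Gr1Mac arrays were ordered opposite to those of most members. Rrp15 rose by 3.46 ± 0.31 and 2.33 ± 0.31, Nol8 by 2.23 ± 0.21 and 1.23 ± 0.21. Nop16 was near the dim end in Gr1Mac (5.96 and 5.05) and rose at least 7.65-fold in MN1 and at least 3.55-fold in MN1VP16.

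Ebna1bp2, an early large-subunit assembly factor, read 10.93 and 10.70 for MN1, 10.11 and 10.04 for MN1VP16 and 9.73 and 8.89 for Gr1Mac. It rose in MN1 by 1.51 ± 0.29 (adjusted p = 0.0118), and MN1VP16 differed from Gr1Mac by 0.77 ± 0.29 (adjusted p = 0.180) and from MN1 by -0.74 ± 0.29 (adjusted p = 0.203). Nop2, an rRNA cytosine methyltransferase long used as a proliferation antigen, read 9.10 and 9.19, 8.28 and 8.28, and 7.79 and 6.85. It rose in MN1 by 1.83 ± 0.31 (adjusted p = 0.00765), with 0.96 ± 0.31 in MN1VP16 (adjusted p = 0.128) and -0.87 ± 0.31 between the transduced groups (adjusted p = 0.170). The MN1VP16 arrays of both genes lay between the groups without overlap. Nol9, a polynucleotide kinase of spacer removal, rose in MN1 by 1.73, Rrp8, an rRNA methyltransferase, by 1.59, Rrp1 by 1.45, its relative Rrp1b by 1.24 and Nop53, which hands precursors to the RNA exosome, by 1.12. Nol12, an exonuclease-related factor, was the exception with 0.71 ± 0.32 (adjusted p = 0.157). The other probe sets of Nop53 differed in MN1 by 0.54 and 0.34 and were not called (adjusted p = 0.306 and 0.245).

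Among 21 genes of small-subunit maturation, 15 rose in MN1 and 5 in MN1VP16, and 3 were lower in MN1VP16 than in MN1 (medians 1.20, 0.82 and -0.51). Utp20, a very large protein of the small-subunit processome, was called in all 3 comparisons, with 9.92 and 9.97 with MN1, 8.65 and 8.85 with MN1VP16 and 7.41 and 7.15 in Gr1Mac cells. It rose by 2.67 ± 0.17 in MN1 (6.37-fold, 95% interval 4.77 to 8.52; adjusted p = 0.00107) and by 1.47 ± 0.17 in MN1VP16 (adjusted p = 0.0160), and was lower by -1.20 ± 0.17 in MN1VP16 than in MN1 (adjusted p = 0.0286). Utp4, of the subcomplex that binds the precursor first, read 10.32 and 10.01, 8.85 and 9.20, and 7.91 and 7.87. Its differences were 2.28 ± 0.20, 1.14 ± 0.20 and, between the transduced groups, -1.14 ± 0.20 (adjusted p = 0.00141, 0.0334 and 0.0420). Nop14, which binds the same processome, read 8.40 and 8.54, 7.45 and 7.51, and 6.74 and 6.46. It changed by 1.87 ± 0.17, 0.88 ± 0.17 and -0.99 ± 0.17 (adjusted p = 0.00166, 0.0440 and 0.0423). Together with Dkc1 these were the 4 genes called between MN1VP16 and MN1.

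Rrp9, which binds the snoRNA that starts the cutting of the small-subunit precursor, read 9.25 and 9.39 on the MN1 arrays, 8.46 and 8.64 for MN1VP16 and 7.42 and 8.02 for Gr1Mac. It rose by 1.60 ± 0.23 in MN1 (adjusted p = 0.00504), with 0.82 ± 0.23 in MN1VP16 (adjusted p = 0.0991) and -0.78 ± 0.23 between them (adjusted p = 0.124). Rrp12, known for its part in the export of subunits, read 7.01 and 7.44, 6.30 and 6.40, and 5.07 and 4.49. Its Gr1Mac arrays were in the dim range, so its rise was given as at least 2.62-fold in MN1 and at least 1.43-fold in MN1VP16 (adjusted p = 0.00211 and 0.0295). Utp15, another member of the first-binding subcomplex, rose by 1.40 ± 0.19 in MN1 and 0.99 ± 0.19 in MN1VP16, and completed the 5 genes called in MN1VP16. The other 9 that rose in MN1 were Nol11 by 2.04, Utp25 by 2.03, Utp18 by 1.58, Rrp7a by 1.20, Nol7 by 1.19, Utp6 by 1.18, Nop9 by 0.87, Utp11 by 0.73 and Nol10 at least 1.21-fold.

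The 6 genes of this role that were not called in MN1 were Nol6, Utp14a, Utp14b, Utp23, Utp3 and Rrp36. Nol6, a processome protein that binds close to the snoRNA, read 7.79 and 7.84 for MN1, 7.88 and 7.79 for MN1VP16 and 7.54 and 7.80 for Gr1Mac. All 6 arrays lay within a narrow band, and its differences were 0.14 ± 0.16, 0.16 ± 0.16 and 0.02 ± 0.16 (adjusted p = 0.585, 0.647 and 0.963), with a 95% interval of -0.26 to 0.54 for MN1 against Gr1Mac. Utp14a, which activates an RNA helicase of the processome, read 10.37 and 10.38, 10.17 and 9.96, and 10.38 and 10.03. Gr1Mac overlapped both other groups, and no difference was called (0.17 ± 0.18, -0.14 ± 0.18 and -0.31 ± 0.18; adjusted p = 0.558, 0.735 and 0.394). Utp14b, an intronless copy of Utp14a known for its role in the testis, read 6.57 and 6.34, 6.90 and 6.95, and 6.54 and 6.87. It had the most positive difference between MN1VP16 and MN1, 0.47 ± 0.18 (adjusted p = 0.205), with -0.25 ± 0.18 and 0.22 ± 0.18 against Gr1Mac (adjusted p = 0.373 and 0.561). Utp23, an endonuclease-like factor, read 8.49 and 8.60, 8.24 and 7.81, and 8.36 and 7.85. Its differences were 0.44 ± 0.24, -0.08 ± 0.24 and -0.52 ± 0.24 (adjusted p = 0.237, 0.900 and 0.277). Utp3 and Rrp36 differed in MN1 by 0.48 ± 0.20 (adjusted p = 0.131) and 0.63 ± 0.24 (adjusted p = 0.103).

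The last 3 genes met the rule by symbol, and 2 of them were dim. Nol3, known as an inhibitor of apoptosis rather than a ribosome factor, read at most 4.46 on any array. Nol4 read 5.53 and 5.60 with MN1, 5.57 and 5.75 with MN1VP16 and 5.42 and 5.92 in Gr1Mac cells, and its differences were -0.10 ± 0.21, -0.01 ± 0.21 and 0.10 ± 0.21 (adjusted p = 0.763, 0.988 and 0.852). Nol4l, a relative of Nol4, rose in MN1 by 1.59 ± 0.40 (adjusted p = 0.0305) with 7.98 and 7.93 against 7.00 and 5.73 in Gr1Mac. Its MN1VP16 arrays, 7.06 and 6.77, overlapped with Gr1Mac.

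Arrays of Gr1Mac differed from each other in these genes more than arrays of the other groups did. Gr1Mac array 1 read above array 2 in 44 of the 51 genes, against 53.6% of all genes. The median of array 1 minus array 2 was 0.58, against 0.03 for all genes. Without regard to sign the median size of the gap was 0.60, against 0.28 for all genes. In MN1, array 1 was above array 2 in 23 of 51 genes (49.3% of all genes), and the median size of the gap was 0.12 (0.16 for all genes). In MN1VP16 these were 20 of 51 genes (52% of all genes) and 0.18 (0.19 for all genes). The mean over the 51 genes was 9.49 and 9.49 on the MN1 arrays, 8.79 and 8.82 for MN1VP16 and 8.05 and 7.54 for Gr1Mac. The 7 genes that did not read higher on Gr1Mac array 1 were Nol4, Nol6, Polr1b, Polr1d, Rrp9, Rrs1 and Utp14b.

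**Figure D3:**
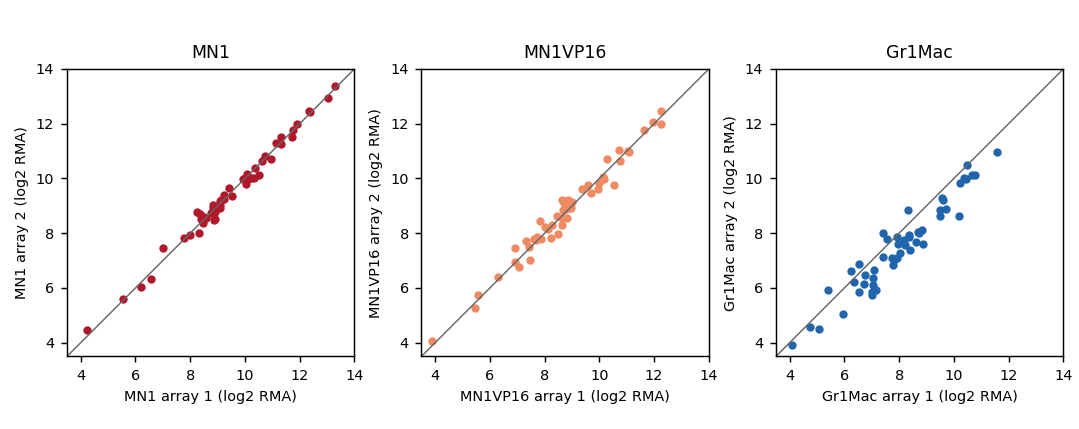
Level of each of the 51 nucleolar genes on array 1 (horizontal, log2 RMA units) and array 2 (vertical) of the same group, with the line of equality. Points of MN1 and MN1VP16 lie on both sides of the line, and 44 of 51 points of Gr1Mac lie below it.

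Other probe sets of the same genes gave a second reading of the same RNA. The 51 genes had 116 probe sets in all, and 65 were not used above. In MN1 against Gr1Mac, 55 of the 65 had the sign of the chosen probe set, 28 were called higher, and 1, the Polr1a set above, was called lower. Of the 10 with the opposite sign 0 were called, and 8 of the 10 never read above the dim range. The other two were probe sets of Nol7, which differed by -0.68, and Utp23, which differed by -0.25. In MN1VP16 against Gr1Mac, 12 of the 65 were called higher and 0 lower. In MN1VP16 against MN1, 4 were called lower and 0 higher: 2 of Ncl, 1 of Nol8 (-0.99, adjusted p = 0.0325) and 1 of Wdr12 (-1.66, adjusted p = 0.0160), genes whose chosen probe sets were not called there. Adjustment here was over the 34945 single-gene probe sets. The share of all these probe sets that was called is not given, and the shares of all genes above belong to the gene-level fit. Whether 28, 12 and 4 of the 65 exceed the background of probe sets was therefore not tested.

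The values had been quantile-normalised, so a rise of all RNA in a cell cannot be seen in them, and the size of a difference depends on the reference chosen. When each array's mean over 43 cytosolic ribosomal protein genes was taken as the reference, 22 of the 51 genes were higher and 8 lower in MN1 than in Gr1Mac, and the median difference was 0.45. That scaling moved the median of all genes to -1.20. In MN1VP16 against Gr1Mac it left 11 higher and 4 lower with a median of 0.14, and between the transduced groups 0 were called. With each array's own median as the reference, 39 of 51 were higher in MN1 and 14 in MN1VP16, and the median of all genes moved to -0.32 and -0.21.

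Genes next to the 51 in the pathway were read from lists. Of 76 measured assembly factors that the symbol rule does not take, 63 rose in MN1 and 0 fell (median 1.78), 30 rose in MN1VP16 (median 1.00), and 14 were lower in MN1VP16 than in MN1 (median -0.76). The 3 with the largest differences were Tsr1, a small-subunit export-stage factor, Gnl3, the nucleolar GTPase nucleostemin, and Gar1, a core protein of the box H/ACA particles. Tsr1 read 11.32 and 11.30 for MN1, 9.83 and 10.23 for MN1VP16 and 6.97 and 6.26 for Gr1Mac, and rose by 4.69 ± 0.27 in MN1 (adjusted p = 0.00098). Gnl3 rose by 4.08 ± 0.26 in MN1 and 2.70 ± 0.26 in MN1VP16 and was lower by -1.39 ± 0.26 in MN1VP16 than in MN1 (adjusted p = 0.00107, 0.0125 and 0.0482). Gar1 followed with 3.77 ± 0.23, 2.43 ± 0.23 and -1.34 ± 0.23 (adjusted p = 0.00098, 0.0125 and 0.0397).

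The RNA exosome, which trims rRNA ends, had 10 of 14 genes higher in MN1 (median 1.04) and 3 in MN1VP16, led by Dis3 with 2.04 ± 0.31, Exosc2 with 2.00 ± 0.15 and Exosc5 with 1.73 ± 0.29 in MN1. Of 43 measured cytosolic ribosomal protein genes of 79 listed, 33 rose in MN1 (median 1.12) and 8 in MN1VP16, and the leading ones were Rpl12 (at least 10.7-fold), Rpl14 (3.21 ± 0.34) and Rps6 (1.93 ± 0.23). These 2 lists rose with smaller medians than the nucleolar genes, and the difference between lists was not tested.

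RNA polymerases II and III had lower medians in MN1 than the 5 polymerase I subunits of the rule (1.75). Of those 5, Polr1c and Polr1d also serve polymerase III. The list of 14 other polymerase I genes had a lower median still (0.44). No difference between these lists was tested. Of all genes, 17.3% were called higher in MN1 and 3.66% in MN1VP16. RNA polymerase II subunits rose in 3 of 7 cases in MN1 (median 0.70; Polr2d 1.15, Polr2b 0.79 and Polr2c 0.77) and in 0 of 7 in MN1VP16. RNA polymerase III subunits rose in 4 of 10 in MN1 (median 0.59; Polr3e 2.25, Polr3d 1.28 and Polr3g at least 2.07-fold) and 1 of 10 in MN1VP16. Of the 3 measured subunits that all nuclear RNA polymerases share, 2 rose in MN1, Polr2h by 2.22 ± 0.26 and Polr2f by 1.49 ± 0.28. Replication and mitosis genes, read as a guide to dividing cells, rose in 11 of 29 cases and fell in 1 in MN1 (median 0.45; Mcm2 1.86, Cdc6 1.66 and Mcm6 1.51), and rose in 2 in MN1VP16 (median 0.18). Their mean level was 10.52 and 10.47 with MN1, 10.01 and 10.55 with MN1VP16 and 9.99 and 9.78 in Gr1Mac cells. Whether cell division moved the nucleolar genes was not tested.

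**Figure D4:**
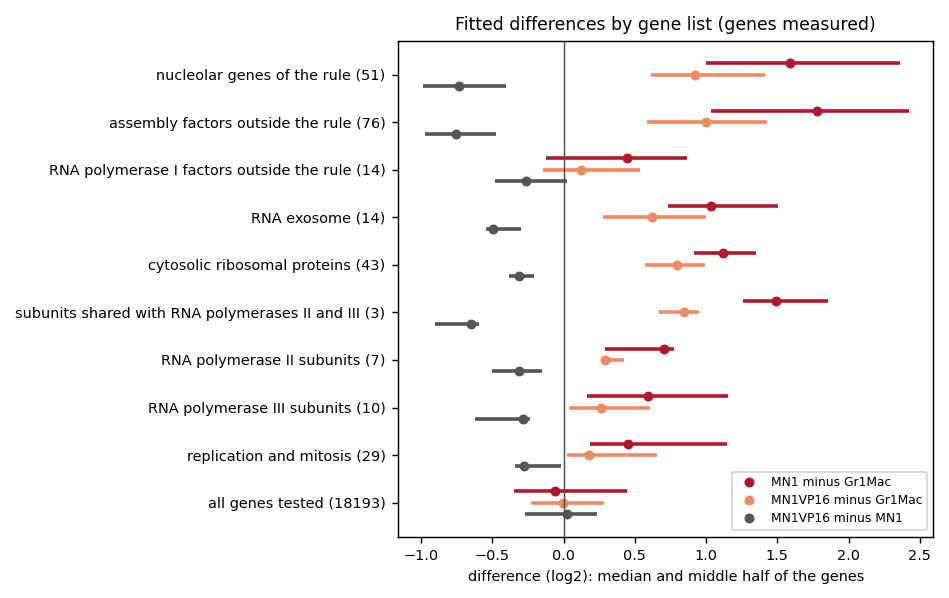
Median (points) and middle 50% (lines) of the fitted differences in each gene list, in log2 units, for the 3 comparisons; the number of genes measured follows each name. The 51 nucleolar genes (medians 1.59, 0.92 and -0.73) and the 76 other assembly factors (1.78, 1.00 and -0.76) lie farther from 0 than the other pathway lists drawn, and all genes tested lie near 0.

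The Myc network genes moved in both directions. Myc read 11.17 and 10.91 on the MN1 arrays, 9.22 and 8.86 for MN1VP16 and 7.07 and 6.23 for Gr1Mac. Its order across the groups was that of 39 of the 51 nucleolar genes and of 14.1% of all genes. Myc differed by 2.39 ± 0.31 between MN1VP16 and Gr1Mac and by -2.00 ± 0.31 between MN1VP16 and MN1 (adjusted p = 0.0204 and 0.0335). Mycn rose by 5.29 ± 0.31 in MN1 and 4.87 ± 0.31 in MN1VP16 (adjusted p = 0.00098 and 0.00769). Mxd1, a repressor that competes with Myc for its partner Max, fell by 2.66 ± 0.29 in MN1 and by 1.76 ± 0.29 in MN1VP16 (adjusted p = 0.00242 and 0.0311). Of the 10 genes of the list, 3 rose and 4 fell in MN1. Whether Myc or its network moved the nucleolar genes was not tested.

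Promoters of the members were read for the letters CACGTG, the E-box that Myc with Max and many other factors of its class bind, which reads the same on both strands. RefSeq promoter windows (GRCm38.p6, from 250 bases before the gene start to 50 after) matched 39 of the 51 genes by symbol. The motif occurred in 9 of the 39 (23.1%): Nol11, Nop2, Pes1, Rrp7a, Utp14b, Utp18, Utp20, Utp25 and Utp4. Among all tested genes with a window, 1479 of 14452 (10.2%) held it. Of the 9 genes, 8 rose in MN1 and Utp14b was not called, while 33 of all 39 genes with a window rose. Another motif, the palindromic core of the site of the growth-related factor Nrf1, occurred on either strand in 0 of the 39 windows and in 253 of 14452 (1.75%). The windows below are those of Utp20 and Utp4, both called in all 3 comparisons, and of Nop2 and Pes1, which were called in MN1. They are written 5′ to 3′ along the gene's strand, with the motif in capitals. Utp20 lies at chr10:88826765-88827064 on the minus strand with the motif starting 37 bases after the gene start, and Utp4 at chr8:106893390-106893689 on the plus strand with the motif 15 bases after it. Nop2 lies at chr6:125131633-125131932 (plus; motif 60 bases before the start) and Pes1 at chr11:3963725-3964024 (plus; motif 2 bases after the start). A match shows only that the letters are there, not that a factor binds them.
Utp20: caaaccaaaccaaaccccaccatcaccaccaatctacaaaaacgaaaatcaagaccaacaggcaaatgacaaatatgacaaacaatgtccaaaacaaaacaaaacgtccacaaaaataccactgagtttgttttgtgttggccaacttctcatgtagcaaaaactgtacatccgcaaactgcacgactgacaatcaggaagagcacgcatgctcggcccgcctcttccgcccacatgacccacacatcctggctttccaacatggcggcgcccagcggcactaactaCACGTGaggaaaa
Utp4: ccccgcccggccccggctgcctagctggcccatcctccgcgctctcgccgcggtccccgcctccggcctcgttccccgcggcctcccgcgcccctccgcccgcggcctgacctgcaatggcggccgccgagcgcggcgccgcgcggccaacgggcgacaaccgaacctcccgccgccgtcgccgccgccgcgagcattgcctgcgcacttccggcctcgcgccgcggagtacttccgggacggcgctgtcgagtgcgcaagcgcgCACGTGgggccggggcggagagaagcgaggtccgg
Nop2: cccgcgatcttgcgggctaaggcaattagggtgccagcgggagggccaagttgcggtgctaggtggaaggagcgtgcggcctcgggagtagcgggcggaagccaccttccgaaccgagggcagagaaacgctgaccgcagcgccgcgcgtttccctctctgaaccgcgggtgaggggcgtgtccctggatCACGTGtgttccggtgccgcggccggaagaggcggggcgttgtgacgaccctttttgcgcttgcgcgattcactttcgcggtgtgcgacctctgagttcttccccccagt
Pes1: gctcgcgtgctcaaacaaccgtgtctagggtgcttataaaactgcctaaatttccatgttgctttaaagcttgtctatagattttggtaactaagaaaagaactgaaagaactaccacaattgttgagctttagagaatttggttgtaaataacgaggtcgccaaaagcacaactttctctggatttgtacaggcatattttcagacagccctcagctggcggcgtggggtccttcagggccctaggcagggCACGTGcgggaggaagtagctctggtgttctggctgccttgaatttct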

How the data were processed

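The authors deposited log2 values per probe set, made with RMA per the submitters' processing notes (version not given in the sources used here), which quantile-normalises arrays. Per the labels, RNA was labelled with a 3' IVT kit, so probes read transcript ends. Of 45037 ordinary probe sets, GEO's annotation named 1 gene for 34945, several for 932 and none for 9160; only the first kind was used, 1 probe set a gene (highest mean), giving 18193 genes. A RefSeq gene table matched 34741 probe sets by gene number and changed 0 symbols. The model was fitted with limma 3.58.1 (R 4.3.3; functions lmFit and eBayes), group being the sole term over the 6 arrays (3 residual degrees of freedom, 3.03 from the prior), and p-values were adjusted within a comparison by Benjamini-Hochberg. Intervals are 95% intervals of the moderated statistic. Scripts were tested on simulated data.

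Folds are antilogs of differences. No detection calls were used, so a group mean at or under 5.84, the highest Xist reading on the Y-high arrays, was treated as dim: a fold against it is written "at least", against the higher of 5.84 and each array's reading. The number of arrays limits the precision. Members and lists were chosen with earlier results of these data known, as was this guide. Full values were given for members fixed by role and for the 3 largest and 3 most negative differences of each comparison, and lists gave up to 3 genes with the largest difference in MN1 against Gr1Mac. Alternatives left out each array, added the replicate number, the sex pattern or the control-feature split as a term, changed the probe set rule, the filter, the scaling, the moderation or the groups fitted.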

Additional observations from a re-analysis of the deposited data

How the results depend on the processing

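Under all 16 alternatives Utp4, Nol8, Nop16, Rrs1, Nop56, Ncl, Nop58, Rrp15, Nop10, Dkc1, Wdr12, Utp20, Rrp12, Nop14 and Nol11 were called higher in MN1 against Gr1Mac, as was Npm1 under the 15 in which it could be read. The 16 are not all distinct for this comparison. Leaving out either MN1VP16 array and fitting only the compared groups are the same fit. The sex pattern as a term and leaving out Gr1Mac array 2 are another. The cause of the shifts below was not tested, except that fewer arrays leave fewer degrees of freedom, and the number of arrays limits every call. Without 1 array in turn, 25 to 43 members were higher in MN1 against Gr1Mac, 0 to 28 in MN1VP16 against Gr1Mac, and 0 to 7 were lower in MN1VP16 than in MN1. Their medians ranged from 1.36 to 1.93, 0.65 to 1.17 and -0.79 to -0.69. Over all genes the calls (main values in brackets) ranged from 1519 to 3103 higher (3147) and 899 to 2097 lower (2187), then 22 to 1018 (666) and 27 to 225 (384), then 3 to 252 (209) and 23 to 350 (492). With the control-feature split, members called were 17, 5 and 0, and all genes 914 and 572, 272 and 169, and 73 and 130. The sex pattern as a term, which leaves 1 Gr1Mac array for each comparison with Gr1Mac, gave 28 members higher in MN1VP16 against Gr1Mac (all genes 1018 and 225), and 0 members, 0 genes either way and a median of -0.13 for MN1VP16 minus MN1. With the ribosomal protein mean subtracted, 22 members were higher and 8 lower in MN1, 11 and 4 in MN1VP16, and 0 lower between them. The member medians were 0.45, 0.14 and -0.38. All genes gave 1075 higher and 13433 lower, 351 and 8256, and 865 and 359. The median of all genes moved to -1.20, -0.79 and 0.38. With each array's median subtracted, all genes gave 2484 higher and 4003 lower, 530 and 946, and 374 and 578 in the 3 comparisons. Fitting only the compared groups gave 6 members higher in MN1VP16 (all genes 181 and 166). It gave 7 members lower between the transduced groups (all genes 104 higher and 350 lower). The mean of all probe sets gave 7 members and 487 genes lower there, and a member median of 1.26 in MN1 against Gr1Mac.

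The replicate number did not pair the arrays: deviations of same-numbered arrays from their group means correlated at -0.05, -0.05 and 0.08 over genes. With the replicate block, 39 members were higher in MN1 and 13 in MN1VP16 against Gr1Mac (all genes 2972 and 479). In that fit 1 member and 327 genes were lower in MN1VP16 than in MN1.

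Signs turned for these genes. Without 1 array in turn, MN1 minus Gr1Mac ranged from -0.75 to 0.14 for Polr1a, -0.36 to 0.15 for Nol4 and -0.0029 to 0.34 for Utp14a, MN1VP16 minus Gr1Mac from -0.26 to 0.24 for Nol4, -0.34 to 0.17 for Utp23 and -0.32 to 0.030 for Utp14a, and MN1VP16 minus MN1 from -0.025 to 0.067 for Nol6. With the sex pattern, MN1 minus Gr1Mac was 0.15 for Nol4 and -0.0029 for Utp14a, and MN1VP16 minus Gr1Mac 0.17 for Utp23 and 0.030 for Utp14a. There MN1VP16 minus MN1 was 0.35 for Polr1a, 0.65 for Fbl, 0.37 for Bop1, 0.74 for Pes1, 0.071 for Wdr12, 0.093 for Ebna1bp2, 0.073 for Nop2, 0.033 for Utp14a, -0.24 for Nol6 and -0.41 for Nol4. With the control split, Nol4 and Utp14a were 0.082 and -0.034 in MN1 and Nol4 0.084 in MN1VP16 against Gr1Mac. With the array median subtracted, Nol6 and Utp14a were -0.12 and -0.088 in MN1 and Nol6 -0.045 in MN1VP16. With the ribosomal protein mean, Nol6, Utp14a and Utp23 were -0.998, -0.97 and -0.70 in MN1, Polr1b, Ebna1bp2, Nol6 and Utp14b -0.013, -0.023, -0.63 and -0.57 in MN1VP16, and Utp14a 0.038 between them. The mean of probe sets gave 0.092 for Utp14a in MN1VP16 against Gr1Mac and -0.014 for Nol6 between MN1VP16 and MN1. Leaving out probe sets whose names end in _x_at, _s_at or _a_at gave -0.049 for Nol6 there and -0.25 for Utp23 in MN1 against Gr1Mac. The chosen probe sets of Polr1d, Polr1e and Rrs1 end in _x_at. Those of Fbl, Nop56, Polr1c, Nol8, Nop53 and Utp23 end in _s_at.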

Other observations

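The array holds control features for the small-subunit rRNA of mouse, a product of RNA polymerase I that the gene-level comparisons did not use. The feature for the middle of this rRNA read 11.88 and 11.72 for MN1, 13.44 and 11.89 for MN1VP16 and 13.38 and 13.59 for Gr1Mac. The feature nearest the 3' end read 12.67 and 12.33, 13.42 and 12.47, and 13.31 and 13.40 in the same order. The feature nearest the 5' end read 12.07 and 11.88, 12.93 and 12.41, and 12.97 and 12.84. The labelling starts at poly(A) tails, which mature rRNA lacks, so these readings are no measure of rRNA content, and the values are given without a comparison.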
